A study of Mus musculus with 36 samples.

Results

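Mice without Gpt2 were compared with wild-type mice after both had received dm-αKG (dimethyl α-ketoglutarate), an ester of the metabolite that enters cells. The comparison uses 16 of the 36 brain RNA-seq libraries of the study. KO-aKG denotes the 8 libraries of Gpt2 knockout mice given dm-αKG, and WT-aKG denotes the 8 libraries of wild-type mice given dm-αKG. They were chosen by their group labels and by the count columns of the same names. The dose was 600 mg per kg by injection into the peritoneum, brains were taken and frozen on postnatal day 19, and RNA was extracted from 10 mg of tissue, its poly(A) ends being copied with an oligo-dT primer. The remaining 20 libraries come from the same genotypes given vehicle (10 KO-Veh and 10 WT-Veh). They share the fit of each gene's spread and the mean that the region scores are compared with, and the genotype effect in them is set beside that with dm-αKG. The way the gene was inactivated, the cells in which it was lost, the strain, the sex, the brain region and the number and timing of injections are not stated in the labels.

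GPT2 is the mitochondrial alanine transaminase. It interconverts alanine and α-ketoglutarate with pyruvate and glutamate, and so supplies the tricarboxylic acid cycle with α-ketoglutarate. When amino acids are short, uncharged tRNAs activate the kinase GCN2, which phosphorylates the initiation factor eIF2. Other eIF2 kinases answer to endoplasmic reticulum stress, to haem shortage or mitochondrial stress, and to double-stranded RNA. Phosphorylated eIF2 lowers general translation but raises that of ATF4, a transcription factor that induces genes for amino acid synthesis, uptake and tRNA charging. This programme is called the integrated stress response.

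Libraries held 5.77 to 11.9 M counts in KO-aKG (median 10.5 M) and 7.52 to 13.3 M counts in WT-aKG (median 11.3 M). Of the counts, 14.4% to 21.2% were mitochondrial ribosomal RNA in KO-aKG and 16% to 26.2% in WT-aKG. Libraries of 1 group differed strongly in marker genes of brain regions. The cerebellum score, the mean log2 CPM (counts scaled to the library's size) over 21 markers of that region, ran from 1.16 to 5.36 in KO-aKG and from 1.62 to 6.71 in WT-aKG. It exceeded the mean over the 36 libraries by more than 1 log2 unit in 1 of 8 KO-aKG libraries (KO-aKG-7) and in 4 of 8 WT-aKG libraries (WT-aKG-3, -6, -7 and -8), called cerebellum-rich below. The first principal component of the 16 libraries carried 40.1% of the variance and correlated with this score at 0.945 across the libraries, a description with no test, since the score uses genes of the same table. The hypothalamus score ran from 0.61 to 4.96 in KO-aKG and from −0.16 to 2.76 in WT-aKG. In RNA from a piece of tissue, fewer cells of a type and less RNA per cell cannot be told apart. Markers of neurons, astrocytes, myelin and microglia were present in both groups, none of them at 0 in all libraries. Xist exceeded the Y-linked Ddx3y in 4 of 8 KO-aKG and 5 of 8 WT-aKG libraries. The series' design text calls the replicates biological, but whether each library is a mouse of its own is not stated, so that p-values cover the spread among libraries.

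**Figure D1:**
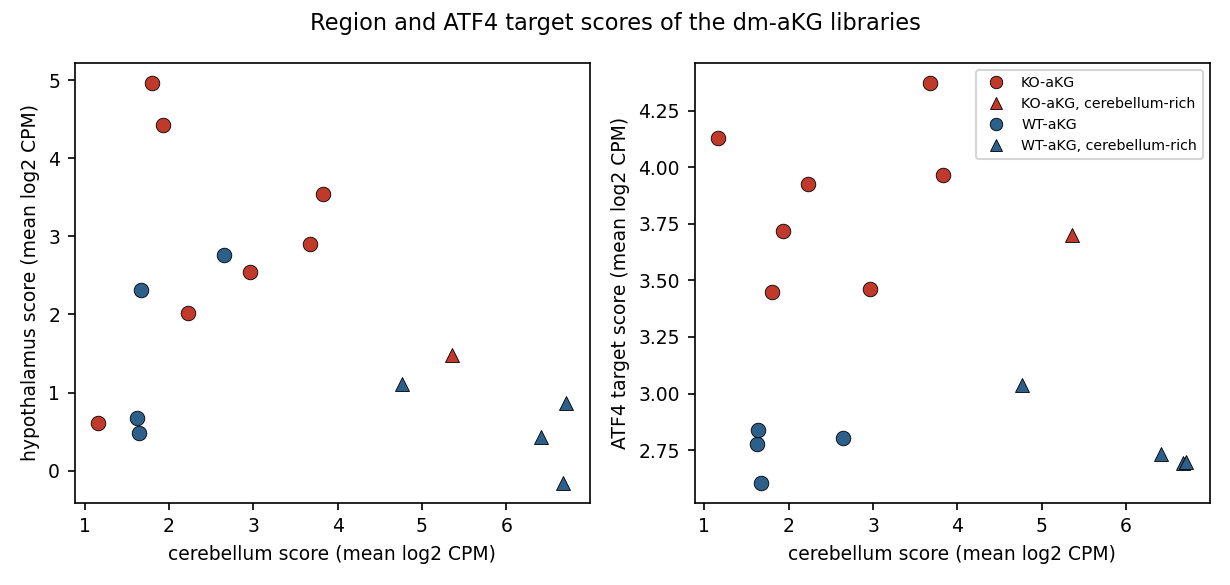
Hypothalamus score (left) and score of 26 ATF4 target genes (right) against the cerebellum score, each a mean log2 CPM over the tested genes of a list, for KO-aKG (red) and WT-aKG (blue) libraries. Triangles are the cerebellum-rich libraries, 1 in KO-aKG and 4 in WT-aKG; the ATF4 target score of every KO-aKG library (3.45 to 4.37) lay above that of every WT-aKG library (2.61 to 3.04).

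The genotype labels were checked first on Gpt2 itself, which lies on chromosome 8 at 85492576 to 85528902 of GRCm38 in the RefSeq annotation. Gpt2 had 1.12 to 3.18 CPM (median 2.52) in KO-aKG and 26.3 to 38.1 CPM (median 31.9) in WT-aKG. All 8 KO-aKG libraries lay far below all 8 WT-aKG libraries, which held 199 and 2811 Gpt2 counts in sum. The log2 fold change of KO-aKG over WT-aKG was −3.77, SE 0.20, edgeR adjusted p = 1.27e-15. In what follows, a bracketed value with its SE is the log2 fold change of KO-aKG over WT-aKG. Some counts remained in every knockout library. The labels do not state which part of the gene was deleted, and counts from outside a deleted part check nothing. Gpt, the cytosolic alanine transaminase, had 5.46 to 9.85 CPM (median 7.25) in KO-aKG and 2.91 to 10.2 CPM (median 6.87) in WT-aKG and was not called (0.12, SE 0.25, edgeR adjusted p = 0.865).

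In a fit over 16255 genes edgeR called 304 genes, 1.87% of those tested, at an adjusted p under 0.05. Of these, 182 genes were higher in KO-aKG (1.12%) and 122 were lower (0.751%), and 44 and 15 of them differed by more than 2-fold. The values of the 8 KO-aKG libraries all lay above those of the 8 WT-aKG libraries for 67 genes (0.412% of those tested) and all below for 31 genes (0.191%). Of these, 59 higher and 23 lower genes were also called. An unadjusted p under 0.05 was found for 2553 genes (15.7%), 1129 higher (6.95%) and 1424 lower (8.76%). The median log2 fold change of all genes tested was −0.02. Without the 9 cerebellum-rich libraries of the study 599 genes were called, 217 higher and 382 lower, and 157 of the 304 were among them. Leaving out a single library lowered the count to 133 (KO-aKG-8), 145 (WT-aKG-6), 163 (KO-aKG-2) or 188 (WT-aKG-1).

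Several transcription regulators of the ATF4 axis were higher in KO-aKG. Of 9 regulators tested, 4 rose and 0 fell, where 1.12% of all genes rose and 0.751% fell, with a median log2 fold change of 0.74. Atf4, whose product directs the programme, had 89.4 to 127 CPM (median 103) in KO-aKG and 45.6 to 71.6 CPM (median 65.4) in WT-aKG. Every KO-aKG library lay above every WT-aKG library, and the fold change was the smallest of the 4 (0.74, SE 0.12, edgeR adjusted p = 0.000281). Ddit3 encodes CHOP, a transcription factor induced downstream of ATF4. Ddit3 had 35.6 to 64.5 CPM (median 47.9) in KO-aKG and 10.4 to 16.6 CPM (median 14.0) in WT-aKG. The groups did not overlap, and the lowest KO-aKG value was more than 2 times the highest WT-aKG value (1.76, SE 0.18, edgeR adjusted p = 2.85e-08). Atf5, a relative of ATF4 that is also translated preferentially under stress, had 33.8 to 53 CPM (median 46.3) in KO-aKG and 17.7 to 29.5 CPM (median 24.1) in WT-aKG, again without overlap (0.93, SE 0.14, edgeR adjusted p = 5.13e-05). Trib3, a pseudokinase that restrains the response, was scarce. It had 0.547 to 1.49 CPM (median 1.10) in KO-aKG and 0 to 0.465 CPM (median 0.230) in WT-aKG, with no overlap between the groups (2.01, SE 0.45, edgeR adjusted p = 0.0113). Cebpb, a partner of ATF4, had 18.9 to 62.3 CPM (median 30.6) in KO-aKG and 12.7 to 31.7 CPM (median 17.0) in WT-aKG and was not called (0.92, SE 0.27, edgeR adjusted p = 0.0712). The immediate stress gene Atf3 (0.48, SE 0.26), Jdp2 (0.26, SE 0.20), Cebpg (0.11, SE 0.10) and Nupr1 (−0.15, SE 0.29) were not called either. Ddit3 shares a stretch of the genome with the end of Mars1 and with Mbd6, and Atf5 overlaps Nup62. Whether the authors' counting used strand is not stated in the labels, so reads of such overlapping genes cannot be told apart. Mbd6 was not called (−0.33, SE 0.18). Nup62 was (0.64, SE 0.14, edgeR adjusted p = 0.0129).

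**Figure D2:**
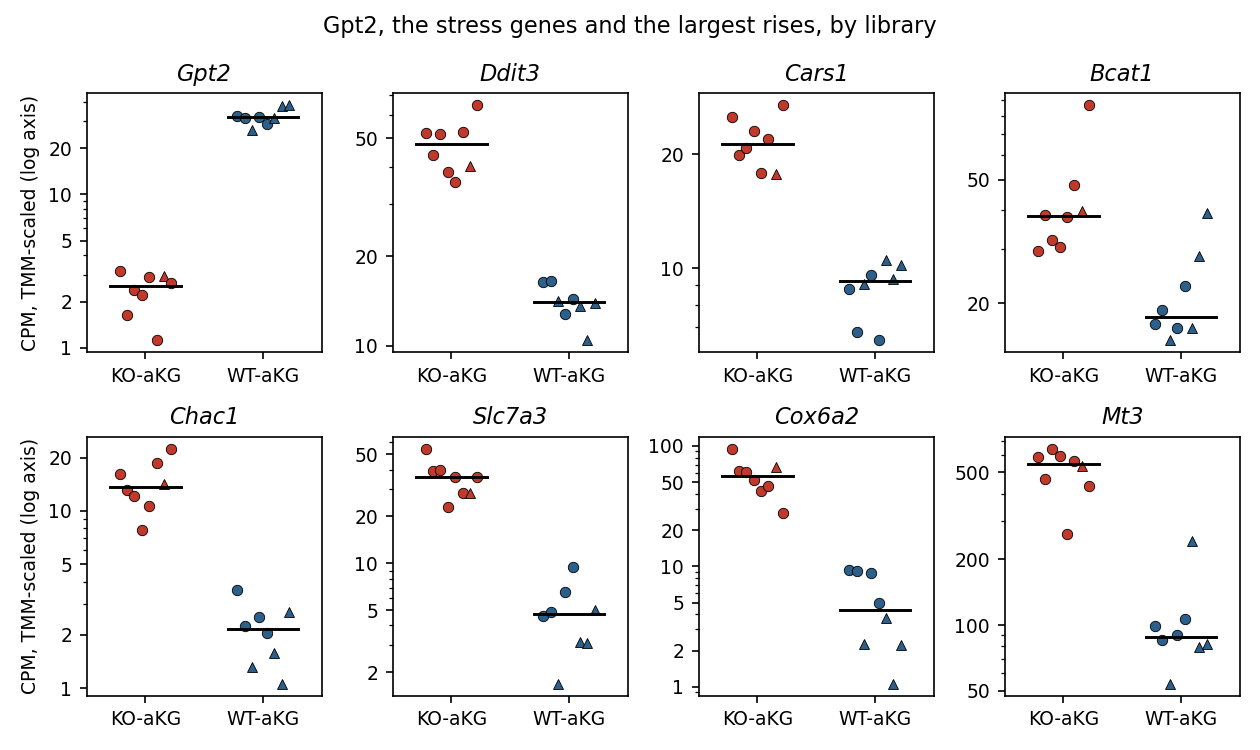
TMM-scaled CPM (log axis) of 8 genes in each KO-aKG (red) and WT-aKG (blue) library, with a black bar at the group's median; triangles are cerebellum-rich libraries. The groups do not overlap for Gpt2, Ddit3, Cars1, Chac1, Slc7a3, Cox6a2 and Mt3, and they do for Bcat1.

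Many genes that ATF4 induces were also higher in KO-aKG. Of 27 enzymes and secreted factors listed as ATF4 targets, 26 passed the count filter (Cdsn did not). Of the 26, 16 rose and 0 fell (1.12% and 0.751% of all genes). Their median log2 fold change was 0.94, and 25 of 26 had a value above 0. For 10 of the 26 the groups did not overlap, KO-aKG being higher, as for 0.412% of all genes. Chac1, an enzyme that cleaves glutathione, had 7.78 to 22.4 CPM (median 13.7) in KO-aKG and 1.06 to 3.57 CPM (median 2.16) in WT-aKG. All KO-aKG libraries were higher, with a log2 fold change of 2.76, SE 0.32, edgeR adjusted p = 5.21e-07. Fgf21 encodes a hormone released under metabolic and mitochondrial stress. It had 0.303 to 11.7 CPM (median 1.67) in KO-aKG and 0 to 0.217 CPM (median 0) in WT-aKG. KO-aKG libraries held 324 Fgf21 counts in sum and WT-aKG libraries held 4, with 0 counts in 6 of the 8, so that a call was made (edgeR adjusted p = 3.69e-06) and no fold is given. KO-aKG-8 and KO-aKG-6 stood highest. Gdf15, another secreted stress factor, had 0.576 to 3.08 CPM (median 1.15) in KO-aKG and 0.188 to 0.750 CPM (median 0.426) in WT-aKG. All but 1 of the KO-aKG values exceeded the WT-aKG range (1.66, SE 0.34, edgeR adjusted p = 0.00555).

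Several of the targets that rose make amino acids or one-carbon units. Asns makes asparagine. It had 55.3 to 109.5 CPM (median 80.9) in KO-aKG and 21.3 to 48.4 CPM (median 33.7) in WT-aKG, with no overlap (1.26, SE 0.18, edgeR adjusted p = 2.06e-05). Mthfd2, a mitochondrial folate enzyme, had 12.2 to 33.3 CPM (median 18.0) in KO-aKG and 3.11 to 8.18 CPM (median 5.48) in WT-aKG. It too was higher in all KO-aKG libraries, with KO-aKG-8 standing above the others (1.80, SE 0.24, edgeR adjusted p = 7.97e-06). Psph catalyses the last step of serine synthesis. Psph had 42.0 to 144 CPM (median 84.1) in KO-aKG and 31.8 to 55.1 CPM (median 40.6) in WT-aKG. All but the lowest KO-aKG library exceeded the WT-aKG range (1.07, SE 0.19, edgeR adjusted p = 0.000695), and Psph overlaps Cct6a, which was not called (−0.01, SE 0.12). Shmt2, which converts serine to glycine in mitochondria, had 15.5 to 25.5 CPM (median 20.5) in KO-aKG and 11.9 to 14.9 CPM (median 13.2) in WT-aKG and did not overlap between groups (0.64, SE 0.12, edgeR adjusted p = 0.00211). Aldh18a1, which begins proline synthesis from glutamate, had 12.9 to 24.4 CPM (median 16.6) in KO-aKG and 7.41 to 11.6 CPM (median 10.0) in WT-aKG, also without overlap (0.83, SE 0.12, edgeR adjusted p = 2.13e-05). Pck2 is the mitochondrial phosphoenolpyruvate carboxykinase. With 13.5 to 24.8 CPM (median 17.9) in KO-aKG and 6.04 to 10.9 CPM (median 8.99) in WT-aKG, its groups did not overlap (1.04, SE 0.15, edgeR adjusted p = 2.13e-05).

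Further ATF4 targets that rose were Sesn2, a leucine sensor that restrains mTORC1 (1.47, SE 0.25), the reductase Cyb5r1 (1.58, SE 0.22), Trim66 (1.80, SE 0.31), the tRNA exporter Xpot (0.57, SE 0.13), Herpud1 of endoplasmic reticulum protein disposal (0.70, SE 0.16) and the secreted Stc2 (1.23, SE 0.33). Trim66 had 5.67 to 11.1 CPM (median 8.82) in KO-aKG and 0.657 to 3.26 CPM (median 2.25) in WT-aKG, without overlap. Cyb5r1 had 10.3 to 51.1 CPM (median 21.9) in KO-aKG and 5.74 to 11.1 CPM (median 7.5) in WT-aKG, and 7 of 8 KO-aKG libraries lay above the WT-aKG range. Members not called included the serine enzymes Phgdh (0.33, SE 0.15) and Psat1 (0.33, SE 0.17), the translation repressor Eif4ebp1 (0.90, SE 0.27) and the folate enzyme Aldh1l2 (1.00, SE 0.30). The score of the 26 tested members was 3.84 ± 0.32 in KO-aKG and 2.77 ± 0.13 in WT-aKG (mean log2 CPM ± SD, n = 8 each), with KO-aKG-8 highest and KO-aKG-5 lowest among the knockouts. The list was chosen with earlier results of these data known, so its count is a description. Without the 9 cerebellum-rich libraries 17 members rose, and 17 rose with cerebellum and hypothalamus scores as covariates.

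**Figure D3:**
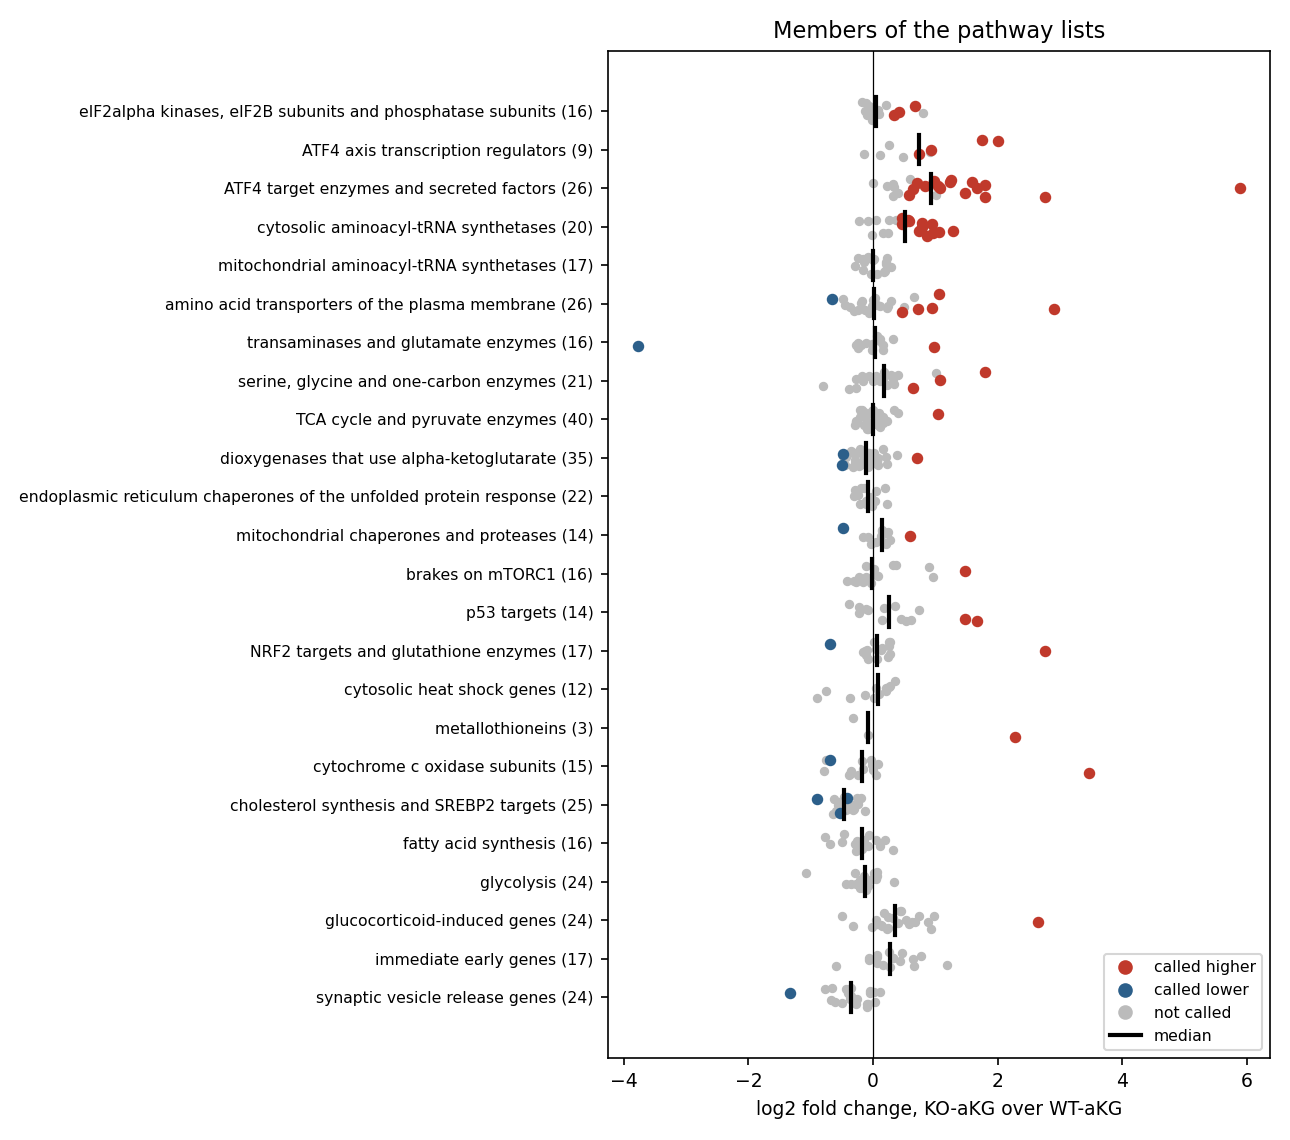
Log2 fold change of KO-aKG over WT-aKG for the tested members of 24 pathway lists (number tested in brackets); red and blue points are genes called higher and lower, grey points are not called, and black bars are medians. The cytosolic synthetases, with a median of 0.52, and both ATF4 lists, with medians of 0.74 and 0.94, lie to the right of 0, and all 25 cholesterol genes lie to the left.

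Aminoacyl-tRNA synthetases attach amino acids to their tRNAs, and cells hold separate cytosolic and mitochondrial sets. Of 20 cytosolic synthetase genes, 12 rose and 0 fell (1.12% and 0.751% of all genes), with a median log2 fold change of 0.52. Of 17 mitochondrial synthetase genes edgeR called 0, DESeq2 also called 0, 1 had an unadjusted p under 0.05 (15.7% of all genes), and the median was 0.00. Cars1 charges the tRNA of cysteine. Cars1 had 17.7 to 26.9 CPM (median 21.3) in KO-aKG and 6.45 to 10.5 CPM (median 9.23) in WT-aKG. The groups did not overlap (1.29, SE 0.12, edgeR adjusted p = 2.98e-09). Nars1, the asparagine enzyme, had 58.0 to 139 CPM (median 81.8) in KO-aKG and 31.8 to 50.6 CPM (median 42.6) in WT-aKG, without overlap (1.06, SE 0.13, edgeR adjusted p = 2.07e-06). Yars1, for tyrosine, had 36.1 to 54.3 CPM (median 43.5) in KO-aKG and 18.1 to 28.3 CPM (median 22.2) in WT-aKG. Every KO-aKG value was higher (0.97, SE 0.13, edgeR adjusted p = 1.09e-05). Sars1, for serine, had 65.3 to 113 CPM (median 90.4) in KO-aKG and 43.7 to 58.7 CPM (median 46.1) in WT-aKG, again without overlap (0.94, SE 0.11, edgeR adjusted p = 7.48e-07). Gars1, for glycine, had 58.0 to 119 CPM (median 75.6) in KO-aKG and 35.2 to 56.7 CPM (median 43.2) in WT-aKG. KO-aKG-8 was highest and the groups did not overlap (0.86, SE 0.12, edgeR adjusted p = 2.16e-05). Mars1, for methionine, had 12.1 to 20.1 CPM (median 14.5) in KO-aKG and 7.54 to 9.80 CPM (median 9.02) in WT-aKG, with no overlap (0.75, SE 0.10, edgeR adjusted p = 1.34e-05).

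The other cytosolic synthetases that rose were those for alanine (Aars1, 0.79, SE 0.15), isoleucine (Iars1, 0.79, SE 0.15), threonine (Tars1, 0.58, SE 0.12), leucine (Lars1, 0.56, SE 0.12), valine (Vars1, 0.47, SE 0.10) and histidine (Hars1, 0.46, SE 0.11). Among those not called were the enzymes for tryptophan (Wars1, 0.36, SE 0.14), arginine (Rars1, 0.25, SE 0.11), glutamate and proline (Eprs1, 0.24, SE 0.13), phenylalanine (Farsa, −0.22, SE 0.15, and Farsb, 0.17, SE 0.13), glutamine (Qars1, 0.05, SE 0.09) and lysine (Kars1, −0.02, SE 0.07). Over the 26 alternative analyses 11 to 13 of the 20 rose and 0 fell. In the libraries given vehicle, 11 of the 20 rose and 0 fell, where 2.6% of all genes rose, and none of the differences between the effects under dm-αKG and vehicle was called.

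**Figure D4:**
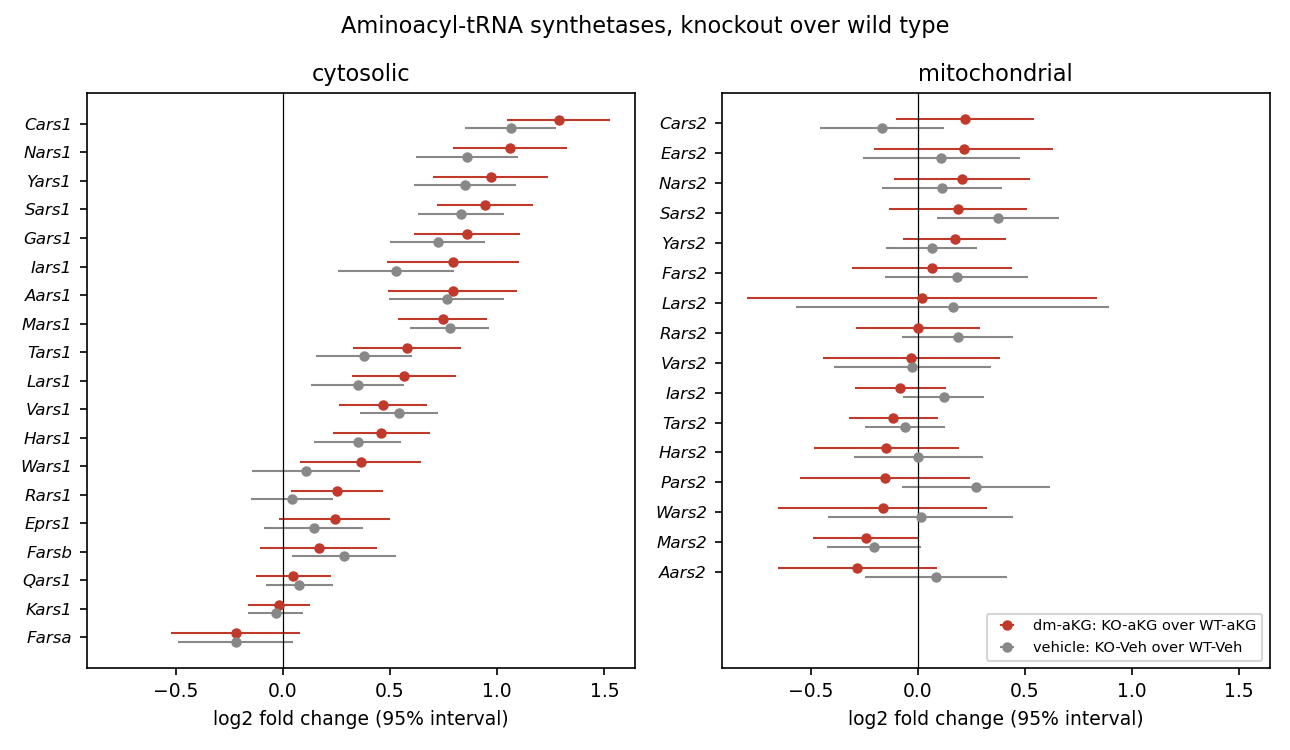
Log2 fold change (95% interval) of knockout over wild type for cytosolic (left) and mitochondrial (right) aminoacyl-tRNA synthetase genes, not all of each list, with dm-αKG in red and with vehicle in grey. Cytosolic values run from −0.22 (Farsa) to 1.29 (Cars1) with dm-αKG, and the mitochondrial Aars2 and Cars2 lie at −0.28 and 0.22.

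ATF4 binds DNA together with C/EBP proteins at composite elements, and the promoters of the genes that rose were searched for the letters TGATGNAA on both strands. The windows run from 250 bases before to 50 after the annotated start (RefSeq, GRCm38.p6). The letters occurred in 1304 of 32851 windows (3.97%) and in 1219 of 27025 genes with a window (4.51%). They occurred in 5 of the 16 called ATF4 targets with a window (31.2%), in 2 of 7 uncalled ones (28.6%), in 1 of 4 called regulators and in 3 of 5 uncalled ones. Of the 12 called cytosolic synthetases 7 had a window and 5 of these held the letters (71.4%): Aars1, Gars1, Iars1, Tars1 and Yars1. Of the 8 uncalled synthetases 6 had a window and 0 held them. A match is a description of the sequence only, and genes of these lists were chosen with earlier results known. Below are 4 promoters that held a match, 2 of ATF4 target enzymes and 2 of synthetases, as 250 bases before the start and 30 after it, 5′ to 3′ on the gene's strand, with the match in capitals. Chac1 lies on the plus strand (chr2:119350992-119351271), Asns on the minus strand (chr6:7693180-7693459), Gars1 on the plus strand (chr6:55037751-55038030) and Aars1 on the plus strand (chr8:111033592-111033871).
Chac1: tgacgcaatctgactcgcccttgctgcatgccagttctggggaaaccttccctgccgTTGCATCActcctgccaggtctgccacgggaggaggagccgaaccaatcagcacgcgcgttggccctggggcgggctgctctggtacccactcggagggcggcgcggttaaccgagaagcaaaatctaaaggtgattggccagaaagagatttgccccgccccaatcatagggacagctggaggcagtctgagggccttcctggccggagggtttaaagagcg
Asns: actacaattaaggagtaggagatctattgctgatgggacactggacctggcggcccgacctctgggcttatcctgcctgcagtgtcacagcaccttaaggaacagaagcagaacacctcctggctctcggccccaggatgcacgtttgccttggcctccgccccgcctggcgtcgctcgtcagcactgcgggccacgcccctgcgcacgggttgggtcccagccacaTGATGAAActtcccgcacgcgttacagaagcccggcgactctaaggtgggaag
Gars1: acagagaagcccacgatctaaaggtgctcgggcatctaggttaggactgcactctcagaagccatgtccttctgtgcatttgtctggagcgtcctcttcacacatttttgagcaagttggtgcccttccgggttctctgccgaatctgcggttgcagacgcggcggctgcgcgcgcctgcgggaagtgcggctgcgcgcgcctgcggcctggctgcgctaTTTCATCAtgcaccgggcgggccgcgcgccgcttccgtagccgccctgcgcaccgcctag
Aars1: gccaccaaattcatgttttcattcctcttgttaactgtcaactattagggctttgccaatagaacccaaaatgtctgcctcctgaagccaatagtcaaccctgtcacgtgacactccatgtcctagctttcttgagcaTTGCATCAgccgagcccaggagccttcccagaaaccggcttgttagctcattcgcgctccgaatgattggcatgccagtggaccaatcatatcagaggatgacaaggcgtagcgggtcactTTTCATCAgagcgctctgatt
The match reads TGATGAAA on the gene's strand in Asns. It lies on the opposite strand in Chac1 (TGATGCAA), in Gars1 (TGATGAAA) and at both sites of Aars1 (TGATGCAA and TGATGAAA). Counted from the annotated start, the matches in Chac1, Asns and Gars1 begin 193, 23 and 30 bases before it.

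Carriers of amino acids across the plasma membrane showed a mixed picture. Of 26 tested, 5 rose and 1 fell (1.12% and 0.751% of all genes), with a median log2 fold change of 0.02. Slc7a3, a carrier of cationic amino acids, had 23.0 to 54.4 CPM (median 35.9) in KO-aKG and 1.69 to 9.46 CPM (median 4.74) in WT-aKG. The groups stood apart in all libraries (2.90, SE 0.32, edgeR adjusted p = 2.03e-07), and the overlapping gene Snx12 was not called (0.12, SE 0.10). Slc7a1, another cationic carrier, had 25.2 to 45.8 CPM (median 27.4) in KO-aKG and 10.0 to 18.5 CPM (median 15.6) in WT-aKG, without overlap (1.06, SE 0.17, edgeR adjusted p = 0.000115). Slc1a4, a carrier of serine and alanine, had 36.8 to 71.0 CPM (median 47.2) in KO-aKG and 17.0 to 37.6 CPM (median 26.8) in WT-aKG. All but 1 of the KO-aKG libraries exceeded the WT-aKG range (0.94, SE 0.18, edgeR adjusted p = 0.00275). Slc7a5 and Slc3a2 encode the light and heavy chains of a carrier of large neutral amino acids. Slc7a5 had 71.2 to 112 CPM (median 88.8) in KO-aKG and 47.9 to 72.0 CPM (median 50.7) in WT-aKG (0.71, SE 0.13, edgeR adjusted p = 0.00116). Slc3a2 had 77.2 to 128 CPM (median 108) in KO-aKG and 57.9 to 98.4 CPM (median 74.1) in WT-aKG (0.47, SE 0.13, edgeR adjusted p = 0.0394), and its call was lost without any 1 of KO-aKG-1, -2, -3, -6 and -8 and WT-aKG-1, -2, -3, -4, -5 and -7 (adjusted p 0.05002 to 0.11, log2 fold change 0.42 to 0.50). Slc36a1, a carrier of small amino acids in the lysosomal and plasma membranes, fell. It had 19.2 to 28.2 CPM (median 26.6) in KO-aKG and 33.6 to 52.5 CPM (median 36.7) in WT-aKG, and every KO-aKG library lay below every WT-aKG library (−0.66, SE 0.14, edgeR adjusted p = 0.006). The cystine carrier Slc7a11, often named as an ATF4 target, had 15.1 to 22.4 CPM (median 19.1) in KO-aKG and 12.5 to 23.1 CPM (median 14.8) in WT-aKG and was not called (0.24, SE 0.13, edgeR adjusted p = 0.359).

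Upstream of ATF4, the 4 eIF2 kinases were not called: Eif2ak4, which encodes GCN2 (−0.11, SE 0.15), Eif2ak3, which encodes PERK (−0.01, SE 0.16), Eif2ak1 (−0.12, SE 0.14) and Eif2ak2 (−0.17, SE 0.16). Of 16 genes of eIF2, its kinases, phosphatases and exchange factor, 3 rose and 0 fell (1.12% and 0.751% of all genes), and the median was 0.04. Eif2s2, the β subunit of eIF2, had 122 to 187 CPM (median 134) in KO-aKG and 81.3 to 117 CPM (median 91.2) in WT-aKG, without overlap (0.68, SE 0.10, edgeR adjusted p = 2.12e-05). The exchange factor subunits Eif2b3 (0.41, SE 0.11, edgeR adjusted p = 0.0322) and Eif2b2 (0.34, SE 0.09, edgeR adjusted p = 0.0418) rose less. The call of Eif2b3 was lost without any 1 of KO-aKG-1, -5 and -8 and WT-aKG-1, -2 and -6 (adjusted p 0.0551 to 0.101, log2 fold change 0.36 to 0.40). That of Eif2b2 was lost without any 1 of KO-aKG-1, -2, -6, -7 and -8 and WT-aKG-1, -2, -3, -4, -6 and -7 (adjusted p 0.051 to 0.111, log2 fold change 0.31 to 0.36). Ppp1r15a, which encodes the stress-induced eIF2 phosphatase subunit GADD34, had 7.30 to 13.7 CPM (median 10.2) in KO-aKG and 7.68 to 14.3 CPM (median 9.86) in WT-aKG and was not called (0.01, SE 0.17, edgeR adjusted p = 0.983). Of 22 chaperones and regulators of the endoplasmic reticulum unfolded protein response edgeR called 0, DESeq2 also called 0, and 1 (Dnajb9) had an unadjusted p under 0.05 (15.7% of all genes). Hspa5, the reticulum chaperone BiP, had 159 to 230.2 CPM (median 179.6) in KO-aKG and 136 to 360.5 CPM (median 188) in WT-aKG, with overlapping groups (−0.12, SE 0.18, edgeR adjusted p = 0.807).

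The mitochondrial stress response was examined next. Of 14 mitochondrial chaperones and proteases, 1 rose and 1 fell (1.12% and 0.751% of all genes), with a median log2 fold change of 0.14. Hspa9, the mitochondrial HSP70, had 118 to 192 CPM (median 131) in KO-aKG and 80.9 to 114 CPM (median 90.7) in WT-aKG. The groups did not overlap (0.59, SE 0.11, edgeR adjusted p = 0.00247). Spg7, a subunit of an inner membrane protease, had 22.2 to 36.3 CPM (median 30.1) in KO-aKG and 32.1 to 49.9 CPM (median 40.6) in WT-aKG and fell (−0.49, SE 0.12, edgeR adjusted p = 0.0278), and its call was lost without any 1 of KO-aKG-1, -2, -5 and -8 and WT-aKG-1, -4 and -6 (adjusted p 0.0551 to 0.0782, log2 fold change −0.47 to −0.43). Of the 14 genes 10 were above 0, and 6 had an unadjusted p under 0.05, 5 higher and 1 lower (6.95% and 8.76% of all genes). Among uncalled members were the co-chaperone Grpel1 (0.27, SE 0.10), the chaperonin Hspd1 (0.14, SE 0.11) and the proteases Clpp (0.21, SE 0.07) and Lonp1 (0.22, SE 0.10).

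Among 21 serine, glycine and one-carbon genes 3 rose, Mthfd2, Psph and Shmt2, and 0 fell (1.12% and 0.751% of all genes), with a median of 0.17. Among 16 tested transaminases and glutamate enzymes 1 rose and 1, the knocked-out Gpt2 itself, fell (1.12% and 0.751% of all genes). The median log2 fold change was 0.02, with 8 values above 0 and 8 below. Bcat1 encodes the cytosolic branched-chain transaminase, which passes amino groups to α-ketoglutarate. It had 29.5 to 86.8 CPM (median 38.3) in KO-aKG and 15.2 to 39.0 CPM (median 18.1) in WT-aKG. The groups overlapped, and KO-aKG-8 stood far above the other libraries (0.97, SE 0.21, edgeR adjusted p = 0.0076). In a fit of the 16 dm-αKG libraries alone it was not called (0.98, edgeR adjusted p = 0.0521). With vehicle the log2 fold change of Bcat1 was 0.58 and it was not called (edgeR adjusted p = 0.0665). The difference between the effects was 0.39 (95% interval −0.17 to 0.96). Glutamate dehydrogenase Glud1 (−0.27, SE 0.13), the aspartate transaminases Got1 (0.16, SE 0.15) and Got2 (0.15, SE 0.14), and glutamine synthetase Glul (−0.02, SE 0.25) were not called.

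In the tricarboxylic acid cycle and pyruvate metabolism Pck2 alone rose among 40 genes and 0 fell (1.12% and 0.751% of all genes), and the median was 0.00. Citrate synthase Cs (−0.26, SE 0.11), isocitrate dehydrogenase subunit Idh3a (0.16, SE 0.09), α-ketoglutarate dehydrogenase Ogdh (−0.14, SE 0.10) and pyruvate carboxylase Pcx (−0.23, SE 0.16) were not called. Of 35 dioxygenases that consume α-ketoglutarate 1 rose and 2 fell (1.12% and 0.751% of all genes), and the median was −0.11. Tet3, which oxidises methylated cytosine, had 18.5 to 32.8 CPM (median 28.0) in KO-aKG and 26.7 to 50.1 CPM (median 37.9) in WT-aKG (−0.50, SE 0.13, edgeR adjusted p = 0.0376). Egln1, the oxygen sensor of the HIF pathway, had 30.9 to 60.1 CPM (median 45.1) in KO-aKG and 48.1 to 76.8 CPM (median 63.2) in WT-aKG (−0.49, SE 0.13, edgeR adjusted p = 0.0368). P4ha2, a collagen prolyl hydroxylase, had 3.95 to 9.55 CPM (median 5.56) in KO-aKG and 2.44 to 4.71 CPM (median 3.76) in WT-aKG (0.70, SE 0.19, edgeR adjusted p = 0.0456). The groups overlapped for all 3 genes. All 3 calls were lost without the 9 cerebellum-rich libraries, where edgeR adjusted p-values were 0.0803 for Tet3, 0.0637 for Egln1 and 0.0861 for P4ha2. The log2 fold changes were then close to those with all libraries (−0.47, −0.51 and 0.65). Cerebellum and hypothalamus scores as covariates gave −0.32, −0.42 and 0.30, and none of the 3 genes was called (edgeR adjusted p = 0.189, 0.0811 and 0.33). Leaving out 1 library ended the call of Tet3 for KO-aKG-2, -5, -6 and -8 and WT-aKG-1, -2, -3, -4 and -6 (adjusted p 0.0509 to 0.12, log2 fold change −0.51 to −0.43), that of Egln1 for KO-aKG-1, -2, -4, -5, -6, -7 and -8 and WT-aKG-1, -2, -3, -4 and -6 (adjusted p 0.0513 to 0.104, log2 fold change −0.49 to −0.42) and that of P4ha2 for KO-aKG-2, -5, -6 and -8 and WT-aKG-1, -2, -3, -4, -5, -6 and -7 (adjusted p 0.052 to 0.124, log2 fold change 0.58 to 0.73).

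Members of other stress lists that rose were also ATF4 targets. Sesn2 was the 1 called gene of 16 brakes on mTORC1, where edgeR called 1.87% of all genes. Sesn2 and Gdf15 were the 2 called genes of 14 p53 targets, and Chac1 was the 1 called higher of 17 glutathione and NRF2 genes. Sesn2 had 3.55 to 7.15 CPM (median 4.45) in KO-aKG and 0.960 to 2.37 CPM (median 1.88) in WT-aKG, without overlap (1.47, SE 0.25, edgeR adjusted p = 0.000499). The p53 targets Pmaip1 (0.74, SE 0.23), Bbc3 (0.62, SE 0.19) and Cdkn1a (0.45, SE 0.25) were not called. Gsr, which regenerates reduced glutathione, had 25 to 33.8 CPM (median 28.0) in KO-aKG and 29.5 to 61.2 CPM (median 41.8) in WT-aKG and fell (−0.69, SE 0.16, edgeR adjusted p = 0.0201). It was not called without any 1 of KO-aKG-8 and WT-aKG-3 and -6 (adjusted p 0.0512 to 0.0652, log2 fold change −0.67 to −0.62). Without the 9 cerebellum-rich libraries the log2 fold change of Gsr was −0.39 and it was not called (edgeR adjusted p = 0.083). Of 12 cytosolic heat shock genes edgeR and DESeq2 called 0, and 4 had an unadjusted p under 0.05, 2 higher and 2 lower (15.7% of all genes).

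Outside these lists of the stress response, 2 single genes of larger families stood out. Cox6a2 is the muscle form of a cytochrome c oxidase subunit. Cox6a2 had 28.0 to 94.7 CPM (median 56.3) in KO-aKG and 1.06 to 9.38 CPM (median 4.32) in WT-aKG. It was higher in every KO-aKG library (3.46, SE 0.52, edgeR adjusted p = 6.31e-05). Cox6a2 overlaps Itgad, which had 2.42 to 10.5 CPM (median 3.88) in KO-aKG and 0.274 to 6.53 CPM (median 1.12) in WT-aKG and was not called (1.38, SE 0.54, edgeR adjusted p = 0.191). Its widely expressed counterpart Cox6a1 had 882 to 1403 CPM (median 1186) in KO-aKG and 1083 to 1829 CPM (median 1375) in WT-aKG (−0.24, SE 0.15, edgeR adjusted p = 0.446). Among 15 oxidase subunits the only other called gene was Cox8a, which had 579.7 to 1206 CPM (median 816) in KO-aKG and 949.7 to 1789 CPM (median 1309) in WT-aKG and fell (−0.68, SE 0.18, edgeR adjusted p = 0.0423). The call of Cox8a was lost without any 1 of KO-aKG-1, -2, -4, -5, -6 and -8 and WT-aKG-1, -2, -3, -4, -6 and -7 (adjusted p 0.0546 to 0.115, log2 fold change −0.70 to −0.62). Mt3, the brain form of metallothionein, had 261 to 642 CPM (median 548) in KO-aKG and 53.7 to 243 CPM (median 88.0) in WT-aKG. The groups did not overlap, and WT-aKG-6 stood above the other WT-aKG libraries (2.28, SE 0.29, edgeR adjusted p = 4.12e-06). The widely expressed Mt1 (−0.08, SE 0.22) and Mt2 (−0.32, SE 0.26) were not called. Within the WT-aKG libraries Cox6a2 was 1.06 to 3.71 CPM in the 4 cerebellum-rich ones and 4.94 to 9.38 CPM in the 4 others, all below the 28.0 CPM of the lowest KO-aKG library.

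Cholesterol is made within the brain, and its enzymes are induced together by SREBP2. Of 25 genes of cholesterol synthesis and SREBP2 targets 3 fell and 0 rose, where 0.751% of all genes fell and 1.12% rose. The median log2 fold change was −0.46, all 25 values were below 0, and 16 had an unadjusted p under 0.05, against 8.76% of all genes below 0. Stard4, which carries cholesterol between membranes, had 6.25 to 11.3 CPM (median 7.80) in KO-aKG and 10.8 to 18.6 CPM (median 15.5) in WT-aKG. All but 1 of the KO-aKG libraries lay below the WT-aKG range (−0.90, SE 0.17, edgeR adjusted p = 0.00247). The call of Stard4 was kept in all 26 alternative analyses. Mvk, mevalonate kinase, had 10.3 to 15.3 CPM (median 12.4) in KO-aKG and 11.6 to 24.6 CPM (median 17.8) in WT-aKG (−0.54, SE 0.14, edgeR adjusted p = 0.0376). It lost its call without any 1 of KO-aKG-1, -2, -3, -4, -5, -6 and -8 and WT-aKG-1, -2, -4, -5 and -8 (adjusted p 0.0503 to 0.0927, log2 fold change −0.54 to −0.45). Tm7sf2, a sterol reductase, had 19.8 to 29.8 CPM (median 23.8) in KO-aKG and 25.6 to 43.3 CPM (median 29.5) in WT-aKG (−0.41, SE 0.11, edgeR adjusted p = 0.0424), overlaps Vps51, and lost its call without any 1 of KO-aKG-1, -2, -4, -5, -6 and -8 and WT-aKG-1, -4, -6, -7 and -8 (adjusted p 0.0541 to 0.112, log2 fold change −0.43 to −0.33). Hmgcs1 (−0.55, SE 0.20), which makes the precursor HMG-CoA, and Sqle (−0.55, SE 0.19), squalene epoxidase, were not called. Of 16 fatty acid synthesis genes edgeR and DESeq2 called 0, 6 had an unadjusted p under 0.05, all of them below 0 (8.76% of all genes), and the median was −0.18. Of 24 glycolysis genes edgeR called 0, DESeq2 called 2, both lower, and 6 had an unadjusted p under 0.05 (15.7% of all genes), 5 of them lower.

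Cerebellum markers varied beside several of the genes that fell. Of 21 cerebellum markers edgeR and DESeq2 called 0, 6 had an unadjusted p under 0.05, all lower (8.76% of all genes), all 21 log2 fold changes were below 0, and the median was −1.98. Their summed level was 150.4 to 1863 CPM in KO-aKG and 179.6 to 5179.7 CPM in WT-aKG, and no marker was at 0 in all libraries. Fabp7, which binds fatty acids in radial and Bergmann glia, had 125 to 376 CPM (median 154) in KO-aKG and 216 to 787 CPM (median 440.4) in WT-aKG (−1.32, SE 0.34, edgeR adjusted p = 0.0322). WT-aKG values were 413 to 787 CPM in the cerebellum-rich libraries and 216 to 468 CPM in the others. Sptb, the β chain of spectrin, had 14.5 to 27.5 CPM (median 21.4) in KO-aKG and 22.7 to 75.1 CPM (median 35.7) in WT-aKG (−0.93, SE 0.25, edgeR adjusted p = 0.0387). WT-aKG values of Sptb were 41.1 to 75.1 CPM in the cerebellum-rich libraries and 22.7 to 30.2 CPM in the others, so the 2 kinds of WT-aKG library did not overlap. Plch2, a phospholipase C, had 5.19 to 23.8 CPM (median 9.25) in KO-aKG and 9.87 to 54.1 CPM (median 24.0) in WT-aKG (−1.28, SE 0.34, edgeR adjusted p = 0.0384). Emid1 had 2.5 to 6.55 CPM (median 3.16) in KO-aKG and 4.61 to 15.1 CPM (median 7.22) in WT-aKG (−1.09, SE 0.27, edgeR adjusted p = 0.0281). KO-aKG and WT-aKG overlapped for all 4 genes.

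Of 14 endothelial markers edgeR called 1 lower and 0 higher (0.751% and 1.12% of all genes), 9 were above 0, and the median was 0.04. An unadjusted p under 0.05 was found for 2 higher and 1 lower (6.95% and 8.76% of all genes). The called gene was Plvap, a protein of fenestrated endothelium. Plvap had 2.98 to 8.39 CPM (median 3.95) in KO-aKG and 6.79 to 11.9 CPM (median 9.55) in WT-aKG (−0.94, SE 0.25, edgeR adjusted p = 0.0385). Its WT-aKG values were 10.6 to 11.9 CPM in the cerebellum-rich libraries and 6.79 to 8.50 CPM in the others, and it overlaps Gtpbp3. Without the 9 cerebellum-rich libraries these 5 genes were not called, with edgeR adjusted p-values of 0.18 for Fabp7, 0.215 for Sptb, 0.0821 for Plch2, 0.0746 for Emid1 and 0.175 for Plvap. Their log2 fold changes were then −0.85, −0.39, −0.95, −0.74 and −0.71. With the cerebellum score alone as a covariate they were −1.03, −0.62, −0.99, −0.79 and −0.78. Then Sptb, Plch2, Emid1 and Plvap were called (edgeR adjusted p = 0.0319, 0.0445, 0.00997 and 0.0341) and Fabp7 was not (0.0522). With cerebellum and hypothalamus scores Emid1 and Plvap were called (edgeR adjusted p = 0.0491 and 0.0153). Fabp7, Sptb and Plch2 were not (edgeR adjusted p = 0.0693, 0.136 and 0.19). Leaving out 1 library ended the call of Fabp7 for KO-aKG-1, -2, -3, -6 and -8 and WT-aKG-3, -6 and -7 (adjusted p 0.0532 to 0.0866, log2 fold change −1.28 to −1.19). It did so for Sptb with KO-aKG-1, -2, -5 and -8 and WT-aKG-3, -6, -7 and -8 (adjusted p 0.0517 to 0.144, log2 fold change −0.93 to −0.74). For Plch2 these were KO-aKG-2, -3, -5, -6 and -8 and WT-aKG-1, -3, -6 and -7 (adjusted p 0.0574 to 0.127, log2 fold change −1.30 to −1.08). KO-aKG-2, KO-aKG-8, WT-aKG-3 and WT-aKG-6 belonged to the sets of all 5 genes. For Emid1 they were KO-aKG-1, -2, -5 and -8 and WT-aKG-3 and -6 (adjusted p 0.0592 to 0.101, log2 fold change −1.04 to −0.92), and for Plvap KO-aKG-1, -2, -3, -4, -5 and -8 and WT-aKG-1, -3, -6, -7 and -8 (adjusted p 0.0544 to 0.1, log2 fold change −1.01 to −0.85).

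Other falls were as large or larger without the cerebellum-rich libraries. Rims1 organises the release sites of synaptic vesicles. Rims1 had 34.4 to 115 CPM (median 61.2) in KO-aKG and 79.3 to 403 CPM (median 131) in WT-aKG (−1.33, SE 0.35, edgeR adjusted p = 0.0407). Among the libraries that were not cerebellum-rich it had 34.4 to 115 CPM in KO-aKG and 126 to 403 CPM in WT-aKG, without overlap, and the log2 fold change without the 9 cerebellum-rich libraries was −1.85 (edgeR adjusted p = 0.00718). It was the only gene that edgeR called among 24 synaptic vesicle release genes (0.751% of all genes fell), whose median was −0.35. DESeq2 called 2 of the 24 lower, and 7 had an unadjusted p under 0.05, all lower (8.76% of all genes). The call of Rims1 was lost without any 1 of KO-aKG-2, -4, -5, -6, -7 and -8 and WT-aKG-1, -2, -4 and -6 (adjusted p 0.0517 to 0.132, log2 fold change −1.37 to −1.02). Diras2, a small GTPase, had 23.6 to 79.6 CPM (median 43.8) in KO-aKG and 49.9 to 124 CPM (median 86.8) in WT-aKG (−0.89, SE 0.23, edgeR adjusted p = 0.0367). Without the cerebellum-rich libraries its log2 fold change was −1.0, and with cerebellum and hypothalamus scores as covariates it was −0.55 and not called (edgeR adjusted p = 0.152). Its call was also lost without any 1 of KO-aKG-2, -4, -5, -6 and -8 and WT-aKG-1, -3, -4 and -6 (adjusted p 0.0527 to 0.107, log2 fold change −0.90 to −0.79).

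Igsf21 is a synaptic adhesion protein. It had 22.2 to 73.0 CPM (median 38.5) in KO-aKG and 53.8 to 127 CPM (median 79.7) in WT-aKG (−0.88, SE 0.20, edgeR adjusted p = 0.0135) and kept its call whichever single library was left out, but not in a fit of the 16 dm-αKG libraries alone (−0.88, adjusted p = 0.0719). Apln, the peptide ligand apelin, had 6.25 to 13.9 CPM (median 8.84) in KO-aKG and 9.22 to 25 CPM (median 17.7) in WT-aKG (−0.86, SE 0.22, edgeR adjusted p = 0.0278). Leaving out any 1 of KO-aKG-1, -2, -6 and -8 and WT-aKG-1, -4 and -8 (adjusted p 0.0524 to 0.0732, log2 fold change −0.84 to −0.76) ended its call. Ocel1 had 3.05 to 12.5 CPM (median 5.98) in KO-aKG and 7.97 to 25.9 CPM (median 16.5) in WT-aKG (−1.36, SE 0.35, edgeR adjusted p = 0.0367). It was not called without any 1 of KO-aKG-1, -2, -4, -5, -7 and -8 and WT-aKG-1, -2, -4 and -6 (adjusted p 0.0574 to 0.0818, log2 fold change −1.42 to −1.24). The groups overlapped for all 3 genes. Without the cerebellum-rich libraries they were called with log2 fold changes of −1.11, −1.05 and −1.54.

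**Figure D5:**
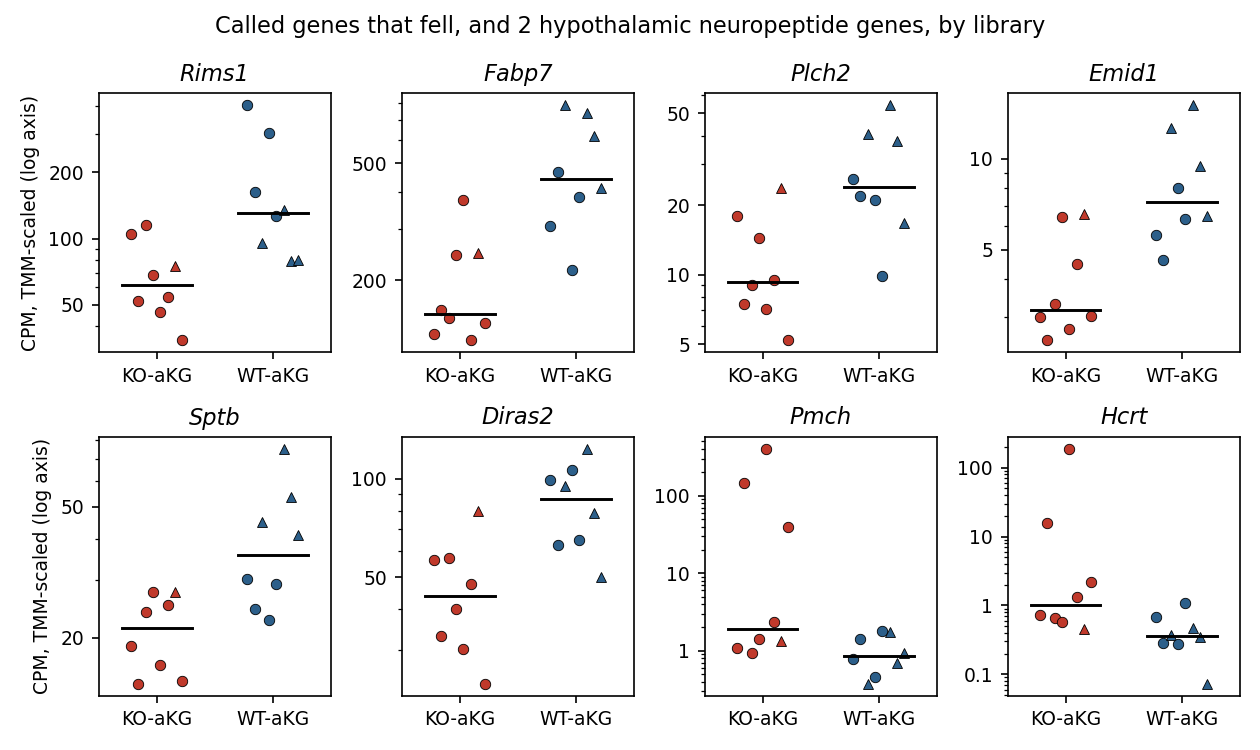
TMM-scaled CPM (log axis) of 6 genes that fell and of the hypothalamic neuropeptide genes Pmch and Hcrt in each KO-aKG (red) and WT-aKG (blue) library; bars are medians and triangles are cerebellum-rich libraries. A triangle is the highest WT-aKG value of Fabp7, Plch2, Emid1, Sptb and Diras2 but not of Rims1, and Pmch and Hcrt are high in few KO-aKG libraries.

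Among called genes averaging 5 CPM or more, the 2 largest rises were those of neuropeptide genes of the lateral hypothalamus, and they rested on few libraries. Pmch, which encodes melanin-concentrating hormone, had 0.947 to 402 CPM (median 1.89) in KO-aKG and 0.375 to 1.78 CPM (median 0.861) in WT-aKG (6.17, SE 1.61, edgeR adjusted p = 0.0376). The highest values came from KO-aKG-5, KO-aKG-2 and KO-aKG-8. Hcrt, which encodes the orexins, had 0.451 to 188 CPM (median 1.02) in KO-aKG and 0.0724 to 1.10 CPM (median 0.364) in WT-aKG (5.90, SE 1.45, edgeR adjusted p = 0.0253), with KO-aKG-5 highest and KO-aKG-2 next. The 14 tested hypothalamus markers were all above 0, with a median of 1.84, and edgeR called 2 of them higher (1.12% of all genes). The summed level of all 18 listed markers was 234 to 1230.1 CPM in KO-aKG and 38.2 to 336 CPM in WT-aKG, and no marker was at 0 in all libraries. The uncalled markers Agrp (3.05, SE 0.94) and Otp (3.11, SE 1.10) also stood above 0. With cerebellum and hypothalamus scores as covariates the log2 fold changes were 0.86 for Pmch and 0.78 for Hcrt, and neither was called (edgeR adjusted p = 0.692 and 0.769). These scores hold both genes. Hcrt was not called without KO-aKG-5, where its log2 fold change was 2.86 (edgeR adjusted p = 0.261), nor without WT-aKG-6, where it was 5.93 (0.0601). Pmch was not called without any 1 of KO-aKG-2, -5 and -8 and WT-aKG-1, -2, -3, -4, -6, -7 and -8 (adjusted p 0.0577 to 0.115, log2 fold change 4.74 to 6.34).

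Other cell types gave few calls. In the lists for neurons, myelinating oligodendrocytes, oligodendrocyte precursors, microglia, mural cells and fibroblasts, striatum, cortex, hippocampus, thalamus, choroid plexus, interneuron neuropeptides and blood cells edgeR called 0. DESeq2 called 1 lower among the neuron markers and 1 higher and 1 lower among the hippocampus markers. An unadjusted p under 0.05 was found for 3 of 16 neuron, 4 of 11 hippocampus, 2 of 12 interneuron, 1 of 14 striatum, 1 of 15 cortex, 1 of 11 thalamus and 1 of 12 oligodendrocyte precursor markers, against 15.7% of all genes. It was found for 0 of 14 microglia, 15 myelin, 12 choroid plexus, 13 mural and fibroblast and 9 blood markers. In the astrocyte list edgeR called Fabp7 alone, 1 of 19, and DESeq2 called 2 lower. There 3 of the 19 had an unadjusted p under 0.05, all lower (8.76% of all genes). All 14 striatum markers were above 0 (median 0.76), with a summed level of 158 to 778 CPM in KO-aKG and 106 to 588 CPM in WT-aKG. Top2a, which untangles DNA in dividing cells, had 0.631 to 1.13 CPM (median 0.955) in KO-aKG and 1.30 to 2.61 CPM (median 1.91) in WT-aKG. Every KO-aKG library lay below every WT-aKG library (−1.02, SE 0.24, edgeR adjusted p = 0.018) and the call was lost without KO-aKG-8 (log2 fold change −0.95, edgeR adjusted p = 0.059) or without the cerebellum-rich libraries (−1.01, adjusted p = 0.0565), at a fold about as large. Top2a was the only gene that edgeR called among 10 tested markers of dividing cells, 9 of which were below 0 (median −0.46). DESeq2 called 2 of the 10 lower, and 5 had an unadjusted p under 0.05, all lower (8.76% of all genes). The complement gene C4b had 5.96 to 35.1 CPM (median 7.11) in KO-aKG and 2.60 to 6.17 CPM (median 4.72) in WT-aKG (1.56, SE 0.38, edgeR adjusted p = 0.0227). Its closely similar neighbour C4a had 0.544 to 4.38 CPM (median 1.13) in KO-aKG and 0.473 to 1.00 CPM (median 0.795) in WT-aKG (1.26, SE 0.34, edgeR adjusted p = 0.0442), and reads may be split between them. The call of C4b was lost without any 1 of KO-aKG-6 and -8 and WT-aKG-6 (adjusted p 0.0594 to 0.103, log2 fold change 1.20 to 1.51).

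Genes induced by glucocorticoids and by neuronal activity were also counted. Of 24 glucocorticoid-induced genes 1 rose and 0 fell (1.12% and 0.751% of all genes), 21 were above 0, and the median was 0.36. DESeq2 also called 1 higher, and 9 had an unadjusted p under 0.05, all higher (6.95% of all genes). Plin4, a lipid droplet protein, had 0.606 to 5.78 CPM (median 1.58) in KO-aKG and 0 to 0.706 CPM (median 0.299) in WT-aKG (2.65, SE 0.67, edgeR adjusted p = 0.03). Its call was lost without any 1 of KO-aKG-2, -6 and -8 and WT-aKG-1, -2, -3 and -6 (adjusted p 0.0519 to 0.0819, log2 fold change 2.25 to 2.64). Fkbp5, a chaperone of the glucocorticoid receptor, had 8.03 to 28.8 CPM (median 20.7) in KO-aKG and 4.5 to 16.3 CPM (median 9.49) in WT-aKG and was not called (0.98, SE 0.37, edgeR adjusted p = 0.18). Of 17 immediate early genes edgeR called 0, DESeq2 called 1, and 2 had an unadjusted p under 0.05 (15.7% of all genes).

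Genes near Gpt2 on chromosome 8 were counted separately. Within 10 Mb of Gpt2, 151 genes were tested, 9 rose and 1 fell (6.62%), against 1.93% of the 15076 tested genes with a position. No test was made of this difference in share. Gm39213, a predicted gene 0.592 Mb away, had 0.455 to 0.903 CPM (median 0.553) in KO-aKG and 3.62 to 14.7 CPM (median 6.46) in WT-aKG. All KO-aKG libraries were lower (−3.50, SE 0.31, edgeR adjusted p = 9.61e-10). Wdr83os, 0.41 Mb away, had 22.6 to 34.1 CPM (median 31.7) in KO-aKG and 11 to 18.5 CPM (median 15.5) in WT-aKG, and Gadd45gip1, 0.657 Mb away, had 43.1 to 62.5 CPM (median 51.2) in KO-aKG and 28.4 to 36.6 CPM (median 32.7) in WT-aKG. Neither overlapped between groups (1.02, SE 0.12, edgeR adjusted p = 1.53e-06 for Wdr83os and 0.69, SE 0.08, edgeR adjusted p = 2.26e-07 for Gadd45gip1). Gadd45gip1 is a subunit of the mitochondrial ribosome, and it overlaps another gene. The cytokine Il15, 3.09 Mb away, had 1.13 to 1.99 CPM (median 1.76) in KO-aKG and 0.335 to 1.09 CPM (median 0.698) in WT-aKG (1.19, SE 0.24, edgeR adjusted p = 0.00474). Scoc, 2.03 Mb away, had 87.0 to 135 CPM (median 97.6) in KO-aKG and 53.7 to 75.0 CPM (median 66.1) in WT-aKG (0.63, SE 0.11, edgeR adjusted p = 0.000391). Mt3 and Herpud1 also belong to this set, at 8.62 and 8.86 Mb. With vehicle the log2 fold changes of Gm39213, Wdr83os, Gadd45gip1, Il15, Scoc and Mt3 were −3.30, 1.13, 0.61, 1.17, 0.57 and 2.44. Whether the DNA around Gpt2 differed between the genotypes was not tested.

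Across the reported fit and all 26 alternatives, 59 genes were called higher and 19 lower each time. The higher set held 3 regulators of the ATF4 axis, 10 ATF4 targets and 11 cytosolic synthetases. Trib3, Fgf21 and Gdf15 were not tested in the fit of the 16 dm-αKG libraries alone, so they could not enter this set. They were called in each of the 25 alternatives that tested them. Members of that set outside every list, chosen here after their values were seen, included Hax1, a mitochondrial anti-apoptotic protein (0.69, SE 0.09), Eif3c of the translation initiation factor eIF3 (0.60, SE 0.12), Nfu1 of iron-sulfur cluster assembly (0.60, SE 0.11), the elongation factor Tcea1 (0.75, SE 0.16), the glutathione transferase Gsto1 (0.64, SE 0.13), Dennd10 (0.78, SE 0.09) and the clathrin light chain Clta (0.39, SE 0.07). Dennd10 had 30.1 to 42.1 CPM (median 34.3) in KO-aKG and 18.4 to 22.4 CPM (median 20.6) in WT-aKG, without overlap. Besides Gpt2, Gm39213, Stard4 and Slc36a1, the 19 lower genes included the chromatin remodelling subunit Smarcc2 (−0.41, SE 0.09), the corepressor Ctbp1 (−0.42, SE 0.08), the actin regulators Wasf3 (−0.61, SE 0.13) and Prex1 (−0.62, SE 0.12), the nuclear receptor Nr2f6 (−0.57, SE 0.10), the initiator caspase Casp9 (−0.65, SE 0.13), Ndp, which encodes the Wnt receptor ligand norrin, (−0.57, SE 0.12) and Capn15 (−0.83, SE 0.16). Capn15 had 14.2 to 28.0 CPM (median 22.9) in KO-aKG and 29.3 to 58.6 CPM (median 39.5) in WT-aKG, Wasf3 had 38.1 to 60.5 CPM (median 49.5) in KO-aKG and 65.4 to 87.8 CPM (median 75.6) in WT-aKG, and Nr2f6 had 18.2 to 25.3 CPM (median 20.5) in KO-aKG and 26.5 to 40.7 CPM (median 30.4) in WT-aKG. The groups did not overlap for these 3 genes.

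The genotype effect with dm-αKG was last set beside the effect with vehicle, which comes from separate libraries. With vehicle 701 genes were called (4.31%), 422 higher (2.6%) and 279 lower (1.72%). Called higher in both comparisons were 108 genes, 59.3% of the 182 and 25.6% of the 422, and called lower in both were 44, 36.1% of the 122 and 15.8% of the 279. The test of the difference between both genotype effects called 0 genes with edgeR and 0 with DESeq2, and 729 genes (4.48%) had an unadjusted p under 0.05 with edgeR and 974 with DESeq2. The effect on Ddit3 was 1.76, SE 0.18, edgeR adjusted p = 2.85e-08 with dm-αKG and 1.85 (SE 0.16) with vehicle, a difference of −0.10 (95% interval −0.57 to 0.37). For Cars1 the effects were 1.29 and 1.06 (SE 0.10), and their difference was 0.22 (95% interval −0.09 to 0.54). For Chac1 they were 2.76 and 2.98 (SE 0.28), with a difference of −0.22 (95% interval −1.06 to 0.62). The intervals of these 3 differences hold 0.

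The 3 genes with the smallest p for the difference were Nedd9, Zfp511 and Creb3l2, all with an edgeR adjusted p of 0.961. Nedd9, a scaffold of focal adhesions, had a difference of 0.79 (95% interval 0.40 to 1.19), from 0.42, SE 0.15 with dm-αKG and −0.38 with vehicle. Zfp511, which overlaps Tubgcp2, had a difference of −0.60 (95% interval −0.91 to −0.29), and Creb3l2, a transcription factor of the secretory pathway, one of 0.90 (95% interval 0.43 to 1.37). Some lists had other counts with vehicle. Of the 25 cholesterol genes 3 fell with dm-αKG and 14 with vehicle (0.751% and 1.72% of all genes), with medians of −0.46 and −0.69. Of the 24 glucocorticoid-induced genes 1 rose with dm-αKG and 10 with vehicle (1.12% and 2.6% of all genes), with medians of 0.36 and 0.49. Groups held 8 libraries each with dm-αKG and 10 with vehicle, which also bears on such counts. For the difference, 2 of the 25 and 2 of the 24 had an unadjusted p under 0.05 (4.48% of all genes).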

How the data were processed

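Brain RNA of 36 libraries (8 KO-aKG, 8 WT-aKG, 10 KO-Veh, 10 WT-Veh) was sequenced by the authors from poly(A) ends primed with oligo-dT carrying a sample barcode and a UMI, per the labels' protocols. The submitters' processing notes name the builds mm10 and mm39, the aligner HISAT2 2.2.1 and the counter featureCounts 2.0.6, beside Trim Galore 0.6.10, FastQC 0.12.1, deepTools and SAMtools 1.6. They do not state which build gave the counts or whether strand or UMIs were used. The table deposited by the authors holds estimated counts per gene, not all whole, which were rounded to whole numbers. A deposited CPM table (counts scaled to library size) of 21637 genes was used only as a check. At least 99.995% of its values matched the count table within 0.51 counts, and 81.4% to 84.8% of the values came out as whole reads within 0.02. Of 56184 genes counted, 19498 had no count. Every sample column was used.

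Genes were filtered with filterByExpr, scaled by TMM and tested with edgeR 4.0.16 in R 4.3.3 (quasi-likelihood, robust) in one fit over the 36 libraries and 4 groups, with Benjamini-Hochberg adjustment over 16255 genes and a threshold of 0.05. Fold changes are knockout over wild type, SEs are the fold change over the square root of F, and levels are TMM-scaled CPM. Scores are means of log2 CPM with a prior count of 1. The same code was tested on simulated counts. No pair of 56 pairs of libraries within the dm-αKG groups was identical, and chi-square per gene was 9.91 to 92.7, so no library was counted as a duplicate.

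Members and gene lists were chosen with earlier results of these data known. Named genes are Gpt2, Ddit3, Cars1 and Bcat1, the 12 largest called rises and falls with a mean of at least 5 CPM (without predicted genes, pseudogenes and sex-linked genes), every called member of a list with few called members and the 6 of smallest p of longer lists. To these come the called genes within 10 Mb of Gpt2, up to 6, and the 3 smallest p-values for the difference between treatments, 67 genes in all. Of the 26 alternatives, among them DESeq2 1.42.0 and leaving out each dm-αKG library, 2 were added after seeing the data. Promoter windows are RefSeq's for GRCm38.p6, matched by symbol or synonym. Some genes of the lists are counted but not reported here by name.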

Additional observations from a re-analysis of the deposited data

Results flagged for a closer look

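Within each group of 8 libraries, the highest or lowest value of 64 called genes was tested for a gap to its nearest neighbour (Dixon's 95% critical value for 8 samples), 128 groups in all. The critical value passes about 1 in 20 groups when values are normally distributed and groups are independent. These genes were chosen as called, share the same libraries and were tested as CPM. The 15 gaps that passed can therefore not be set against that rate.

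KO-aKG-8 stood high for Bcat1 (86.8 CPM, next 48.2 CPM), Mthfd2 (33.3 CPM, next 20.1 CPM), Gars1 (119 CPM, next 84.5 CPM) and Hspa9 (192 CPM, next 147 CPM). KO-aKG-1 stood high for Cyb5r1 (51.1 CPM, next 26.1 CPM) and Mars1 (20.1 CPM, next 15.8 CPM). KO-aKG-5 stood high for Pmch (402 CPM, next 143 CPM), Hcrt (188 CPM, next 15.6 CPM) and Scoc (135 CPM, next 105 CPM). KO-aKG-7, the cerebellum-rich knockout library, stood high for Mvk (15.3 CPM, next 12.5 CPM) and for Gm39213 (0.903 CPM, next 0.625 CPM).

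In WT-aKG, library 6 stood high for Mt3 (243 CPM, next 107 CPM), library 8 for Sars1 (58.7 CPM, next 48.0 CPM) and Hspa9 (114 CPM, next 93.4 CPM), and library 3 for Gm39213 (14.7 CPM, next 7.06 CPM). Of these 15 values, the calls of Pmch and Hcrt were lost without the library concerned. Mvk kept its call without KO-aKG-7.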

How the results depend on the processing

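The count of 304 genes called between KO-aKG and WT-aKG (182 higher, 122 lower, 59.9% higher) changed with several settings. It was 599 without the 9 cerebellum-rich libraries (217 higher, 382 lower, 36.2% higher), 622 with the cerebellum score as a covariate (300 higher, 322 lower, 48.2% higher) and 232 with cerebellum and hypothalamus scores (152 higher, 80 lower), where 153 of the 304 were called. DESeq2 called 483 (275 higher, 208 lower), and a fit with no low-count filter called 145 (96 higher, 49 lower). With DESeq2 size factors 296 genes were called, 296 with Xist as a covariate, 230 in the 16 dm-αKG libraries alone and 229 without the 3 shallowest of them. Leaving out each dm-αKG library gave 133 to 325 genes (90 to 205 higher, 43 to 144 lower), and 70.6% were higher without KO-aKG-2 and 69.9% without KO-aKG-5. With vehicle the 701 genes called became 1313 with both scores as covariates and 348 without a filter. The difference between treatments called 0 genes in every alternative run for it. The cause of these shifts was not tested.

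Of 64 named genes called, 39 kept their call whichever dm-αKG library was left out and 25 lost it at least once. None of the named genes reversed. Without the 9 cerebellum-rich libraries Fabp7, Plch2, Emid1, Sptb, Plvap, Egln1, Tet3, P4ha2, Eif2b3, Eif2b2, Gsr, Cox8a, C4b, Plin4, Top2a, Pmch and Hcrt were not called. The log2 fold change was then smaller in size for Sptb (−0.39, against −0.93 with all libraries), Fabp7 (−0.85, against −1.32), Emid1 (−0.74, against −1.09), Plch2 (−0.95, against −1.28), Gsr (−0.39, against −0.69) and Plvap (−0.71, against −0.94). It was as large or larger for C4b (1.67, against 1.56), Plin4 (3.23, against 2.65), Eif2b3 (0.44, against 0.41), Cox8a (−0.70, against −0.68), Egln1 (−0.51, against −0.49) and Pmch (6.27, against 6.17). Cerebellum and hypothalamus scores as covariates gave smaller sizes for these genes, in the same order 1.16, 2.46, 0.34, −0.38, −0.42 and 0.86. None of them was then called (edgeR adjusted p = 0.0999, 0.107, 0.102, 0.225, 0.0811 and 0.692), and the hypothalamus score itself holds Pmch. With the cerebellum score alone as a covariate Sptb, Plch2, Emid1, Plvap and Gsr were called, and Fabp7 was not (edgeR adjusted p = 0.0522). In the 16 dm-αKG libraries alone Bcat1 (adjusted p = 0.0521), Igsf21 (0.0719), Rims1 (0.0706) and Diras2 (0.0696) were among the genes not called.

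Samples share replicate numbers, but same-numbered libraries correlated in their deviations at 0.441, 0.357, −0.352, 0.099, 0.322, 0.122, 0.417 and 0.598 for numbers 1 to 8, and 3 of 8 KO-aKG libraries (2, 5 and 8) correlated best with their own number. No label says that a number marks a shared litter, batch or day, so the numbers were not taken as pairs. The correlations cannot settle whether such sharing existed, since region markers also differ strongly between libraries. A replicate block gave 325 genes (179 higher, 146 lower), 263 of them among the 304, and 623 with vehicle.

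Depth limits genes of few counts: Fgf21 had 4 counts in all WT-aKG libraries together and Trib3 had 23.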
